A study of Mus musculus with 12 samples.

Results

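The expressed non-coding RNA genes of mouse liver are described here, across calorie restriction (CR) and feeding ad libitum (Con) at day 25 and day 30. They are the 86 genes, of 24537 in the deposited table, that the table's annotation types as ncRNA and that were selected on a mean of at least 5 FPKM over the 12 libraries. The table types 3353 genes as ncRNA, of which 1658 were listed at 0 in every library and 110 reached the mean of 5. From these 110, the 24 small nucleolar RNA and microRNA entries shorter than 200 bases were left out. The members were thus chosen by their mean level over all libraries, so the levels themselves are a description, while the rule itself uses no comparison of CR with Con, though it was set with earlier results of these data known. The members nearest to the threshold were 2610001J05Rik (5.10 FPKM), Gm10658 (5.20) and 2010320M18Rik (5.26). Just below it lay 2610507I01Rik (4.97 FPKM), E330011O21Rik (4.96) and Rab10os (4.85).

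Long non-coding RNAs are transcribed and spliced much like messenger RNAs but are not read into a long protein. Some build nuclear bodies, some carry small nucleolar RNAs (snoRNAs) or microRNAs in their introns and exons and are processed to release them, and others lie antisense to, or share a promoter with, a protein-coding gene. In liver, a few are known to act on lipid handling and on the response to feeding and fasting, but most of the genes listed here have no settled function.

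Male C57Bl/6J mice, 6 weeks old at the start and housed singly, were either fed ad libitum (Con) or given 30% less food than the ad libitum group ate (CR). Per the paper, CR mice received a fortified form of the control diet, given daily at noon. Mice of the study were also labelled with heavy water in the days before sacrifice. Fewer calories, the other diet and the timed meal cannot be told apart here. Livers were taken at day 25 or day 30, which makes 4 groups of 3 mice, and libraries for RNA-Seq were made from isolated total RNA. The paper speaks of liver mRNA, and how RNA was selected for the libraries is not given in the sources used here. The study asks how the liver's RNA and protein synthesis respond to CR before and after a change that it places between these days. Each value is an FPKM as the authors deposited it, that is, exon reads divided by the length of the exons and by the size of the library. The depth read back from the steps between low FPKM values was 16853598 to 18407818 reads in Con and 15748218 to 21198674 reads in CR mice at day 25, and 20483583 to 22548738 reads in Con and 19450530 to 23345736 reads in CR mice at day 30. Those steps were whole multiples of 1 read, within 0.1 read, for 100% of the low values used. At that depth a member had a mean of 44.4 to 36280 reads per library (median 258) and no fewer than 35 in any library. Every one of the 86 had an FPKM of at least 1 in all 12 libraries and passed the filter for testing.

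Hepatocyte markers were at the high levels of liver. Alb, Apoa1, Ttr, Serpina1a, Cps1 and Tdo2 summed to 45406, 43919 and 50792 FPKM in Con and 49512, 52798 and 52542 FPKM in CR mice at day 25. At day 30 they summed to 45607, 36665 and 42396 FPKM in Con and 63338, 53032 and 57328 FPKM in CR mice, and Alb was the most abundant. Alb (log2 fold change 0.64, adjusted p = 0.00791) and Cps1 (0.48, adjusted p = 0.0705) rose at day 30 and the other 4 did not pass (median of the 6, 0.07). Among all genes tested, 8.33% rose at day 30. Over both days Alb rose (0.43, adjusted p = 0.0104) and Apoa1 fell (−0.23, adjusted p = 0.0703), where 14.5% of all genes rose and 26.1% fell. Xist, transcribed from the inactive X chromosome of females, averaged 0.021 FPKM, as the male label implies.

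A few members hold much of the signal. Malat1 averaged 256 FPKM, followed by BC024386 (204), Gm10069 (202), Gm30505 (148), 0610005C13Rik (132), Gm10768 (119) and Neat1 (62.6), and these 7 made up 52.3% of the members' summed FPKM. The next were 1810058I24Rik (45.1 FPKM), Gm20319 (41.4) and AW112010 (40.2). The median member averaged 10.6 FPKM, with 6 members above 100, 40 between 10 and 100, and 40 between 5 and 10. Their lengths in the table ran from 323 to 9200 bases (median 1098). They lay on 19 chromosomes, 13 of them on chromosome 19, which holds Malat1 and Neat1. Between mice of a group the median coefficient of variation of the members was 14.1% (Con) and 14.3% (CR) at day 25 and 11.6% (Con) and 15.4% (CR) at day 30. Over all 10593 genes tested it was 11.8%, 12.0%, 10.4% and 12.0%.

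Of these 10 abundant RNAs, Neat1 alone passed at day 25 and at day 30, and 5 passed over both days together. Of all genes tested, 14.9% passed at day 25, 24.7% at day 30 and 40.6% over both days. BC024386, at chr7:140906064-140907967 of mm10, measured 223, 199.96 and 248 FPKM in Con and 179, 216 and 176 FPKM in CR mice at day 25, and its groups overlapped at both days. Gm30505, antisense to the fetuin gene Ahsg, measured 147, 195 and 166 FPKM in Con and 145, 156 and 164 FPKM in CR mice at day 25, again overlapping (log2 fold change −0.12 ± 0.12 (SE), adjusted p = 0.582). Gm10768, 585 bases from the bile conjugate exporter gene Abcc2, had a log2 fold change of 0.11 ± 0.15 (SE), adjusted p = 0.709 at day 25 and −0.15 ± 0.15 (SE), adjusted p = 0.501 at day 30, when its CR mice (113, 122 and 119.8 FPKM) all lay below its Con mice (131, 139 and 126 FPKM). Over both days, Gm10069 (−0.25 ± 0.10 (SE), adjusted p = 0.0703), 0610005C13Rik (−0.27 ± 0.10 (SE), adjusted p = 0.0605) and Gm20319 (−0.27 ± 0.11 (SE), adjusted p = 0.0855) were lower and 1810058I24Rik (0.39 ± 0.15 (SE), adjusted p = 0.0656) was higher, and at day 30 the CR mice of Gm10069 all lay below the Con mice. Each of these 4 calls was lost when any of several single mice was left out, and Gm10069, 0610005C13Rik and Gm20319 also under median-ratio scaling (adjusted p up to 0.157, 0.134 and 0.180). Pzp, which Gm10069 overlaps on the opposite strand, fell over both days too (−0.27, adjusted p = 0.0454). It did not pass at day 25 (adjusted p = 0.389) or day 30 (adjusted p = 0.118). AW112010, known as an interferon-induced transcript of immune cells, measured 36.2, 38.6 and 35.7 FPKM in Con and 31.3, 35.8 and 30.1 FPKM in CR mice at day 25 and did not pass at either day or over both.

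At day 25, 15 of the 86 members passed an adjusted p under 0.1 in CR against Con, 7 of them higher and 8 lower, where 14.9% of all genes tested passed, 5.6% higher and 9.34% lower. At day 30, 22 members passed, 7 higher and 15 lower, against 24.7% of all genes, 8.33% higher and 16.4% lower. Over both days, 39 passed, 18 higher and 21 lower, against 40.6% of all genes, 14.5% higher and 26.1% lower. The members' shares, 17.4%, 25.6% and 45.3%, lie near those of all genes, so the counts say little about non-coding RNA as a class. Groups did not overlap for 19 members at day 25, 9 with CR above and 10 below, where 28.2% of all genes did not overlap (10.2% above and 18% below). At day 30 they did not overlap for 24, 8 above and 16 below, where 36.4% of all genes did not (12.1% above and 24.3% below).

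The split between higher and lower depends on the scaling. Under median-ratio scaling it was 10 higher and 6 lower at day 25, 13 and 9 at day 30, and 23 and 14 over both days. With quantile normalization it was 10 and 7, 11 and 11, and 22 and 18. No called member changed sign under these scalings or TPM, while 7 members at day 25 and 15 at day 30 did, none of them called. At day 25, Con and CR mice of the same number deviated together. There, a block for that number gave other counts: 18 members passed (all genes 16.5%), 15 of them the same. The 3 added were D330041H03Rik, Epb41l4aos and 2210408F21Rik, the last named after its values were seen. Leaving out Con mouse 1 or CR mouse 1 of day 25 left 9 calls there (all genes 9.44% and 9.48%). At day 30, 10 calls were left without the Con mouse of column Con10 (all genes 17.8%), 11 without that of Con11 (17.7%) and 13 without CR mouse 1 (14.1%).

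The changes were small. The log2 fold change, taken on log2(FPKM + 1), had a median over members of 0.02 at day 25 and −0.04 at day 30, against −0.04 and −0.07 over all genes. It stayed within 0.5 of 0 for 76 members at day 25 and 73 at day 30 (88.4% and 84.9%, against 91.2% and 88.0% of all genes). Requiring a change of 1 log2 unit or more as well left 1 member, Neat1, at each day and over both (all genes 1.48%, 2.21% and 1.66%). Which members reach this depends on the setting. Over the refits C730036E19Rik reached up to 1.22 at day 25 and Gm14403 up to 1.12 at day 30. Neat1 came as near to 0 as −0.91 at day 25 and −0.86 at day 30. At both days separately, 10 members passed (11.6%, all genes 10.9%), which is 66.7% of the calls of day 25 and 45.5% of those of day 30 (all genes 73.1% and 44.1%).

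**Figure D1:**
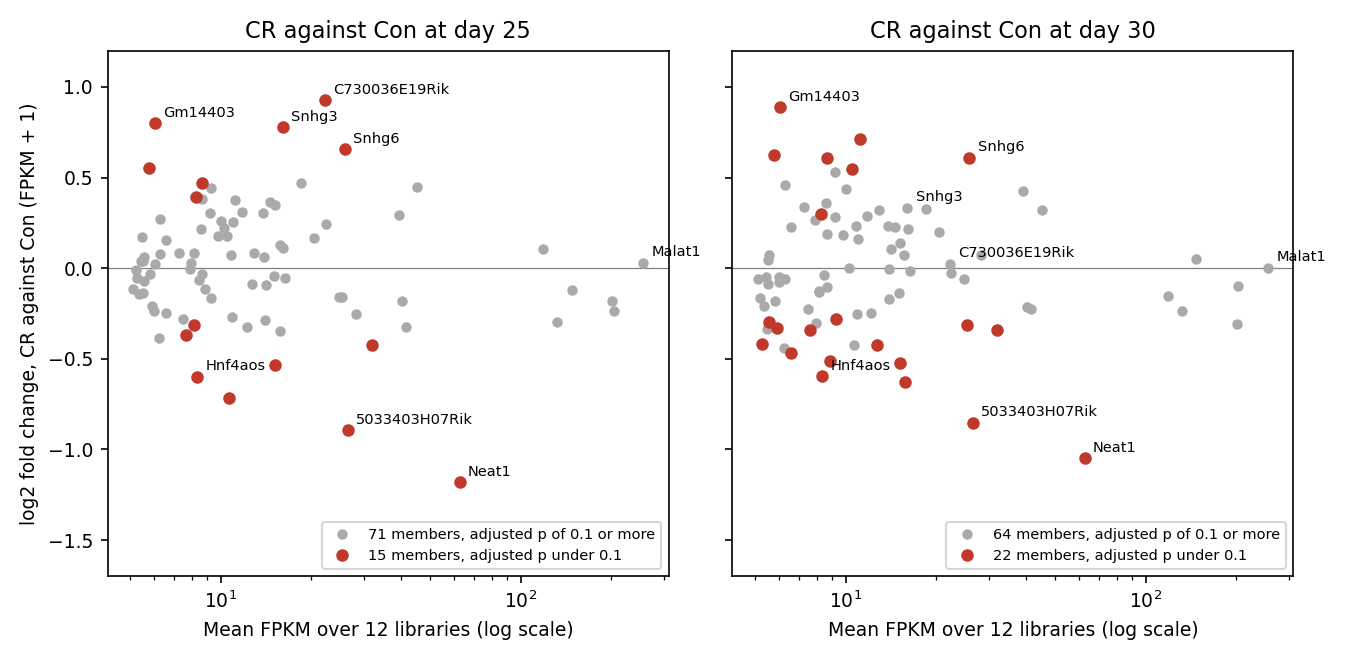
Each point is 1 of the 86 members, placed by its mean FPKM over 12 libraries (x axis, log scale) and its log2 fold change of CR against Con on log2(FPKM + 1) (y axis), at day 25 and at day 30, with members at an adjusted p under 0.1 in colour. Neat1 is the lowest point at both days (−1.18 and −1.05), and Malat1, the most abundant, lies near 0 (0.03 and 0.00).

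Neat1 and Malat1 are neighbours on chromosome 19 and both stay in the nucleus. Neat1 is the scaffold of paraspeckles, nuclear bodies that hold back certain proteins and RNAs, and Malat1 collects in nuclear speckles, where splicing factors are stored. Neat1 measured 77.9, 84.2 and 143 FPKM in the Con mice and 33.03, 45.1 and 52.1 FPKM in the CR mice at day 25. At day 30 it measured 67.1, 80.4 and 64.4 FPKM in Con and 48.4, 30.1 and 25.6 FPKM in CR mice. All 3 CR mice lay below all 3 Con mice at each day, and 1 Con mouse of day 25, at 143 FPKM, stood above the other 2. Neat1 fell at day 25 (log2 fold change −1.18 ± 0.26 (SE), adjusted p = 0.0153) and at day 30 (−1.05 ± 0.26 (SE), adjusted p = 0.0179), from 102 ± 35.7 FPKM in Con and 43.4 ± 9.65 FPKM in CR mice and from 70.6 ± 8.59 FPKM in Con and 34.7 ± 12.05 FPKM in CR mice (SD, n = 3 each). Both calls held under every alternative setting and with any 1 mouse left out. The table's entry spans chr19:5842296-5845480, minus strand, of mm10, the part that the short and the long Neat1 transcripts share. In bulk liver, fewer cells that express a gene and less RNA per cell cannot be told apart, here and for every member.

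Malat1 measured 229, 206 and 279.95 FPKM in the Con mice and 343, 183 and 224 FPKM in the CR mice at day 25. Its levels at day 30 were 251, 289.7 and 258 FPKM in Con and 279, 232 and 291 FPKM in CR mice. The CR mice reached both above and below the Con mice at day 25, and the groups overlapped at both days. Its log2 fold change was 0.03 ± 0.20 (SE), adjusted p = 0.946 at day 25 and 0.00 ± 0.20 (SE), adjusted p = 0.992 at day 30, and its sign turned with the scaling. Firre, an X-linked RNA that helps to arrange chromosomes in the nucleus, measured 5.99, 5.69 and 6.20 FPKM in Con and 5.46, 6.63 and 6.14 FPKM in CR mice at day 25 (0.02 ± 0.10 (SE), adjusted p = 0.930). Of the 13 nuclear RNAs listed, 4 could be tested, and beside these 3 members that was Tug1, just under the threshold for members at 4.61 FPKM, with log2 fold changes of −0.25, adjusted p = 0.345 at day 25 and −0.44, adjusted p = 0.0711 at day 30. Miat and Hotair were listed at 0, and Xist and Tsix averaged under 0.1 FPKM.

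**Figure D2:**
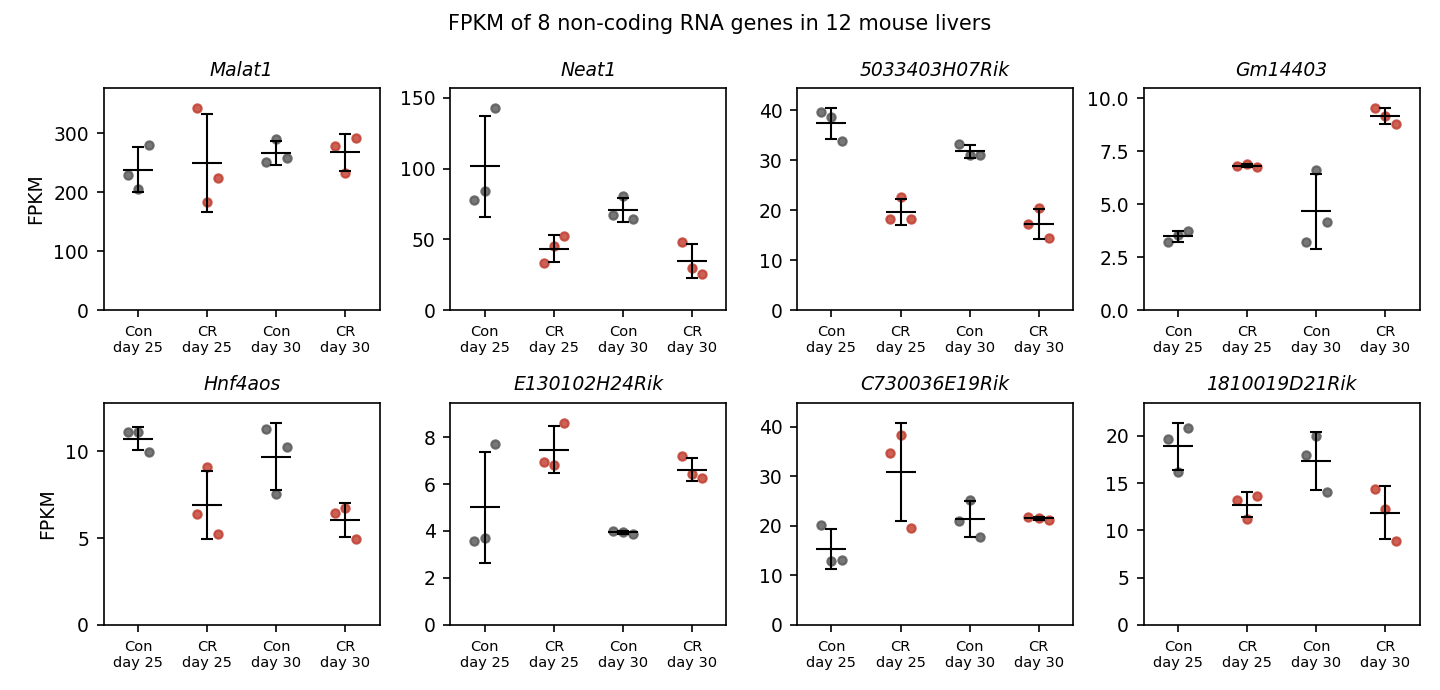
FPKM of 8 members (y axis) in each mouse, by group (x axis; Con and CR at day 25 and day 30), with points for mice and bars for the mean ± SD of 3 mice. Neat1, 5033403H07Rik and Hnf4aos are lower in CR at both days, Gm14403 is higher at both, C730036E19Rik reaches 38.3 FPKM in CR at day 25 and lies within the Con range at day 30, and Malat1 overlaps.

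Among members whose span overlaps no coding gene of the table, 5033403H07Rik had the smallest p at each day. 5033403H07Rik measured 39.6, 38.6 and 33.9 FPKM in the Con mice and 18.2, 22.7 and 18.2 FPKM in the CR mice at day 25. The Con mice of day 30 had 33.3, 31.03 and 31.1 FPKM and the CR mice 17.2, 20.4 and 14.4 FPKM. Every CR mouse lay far below every Con mouse, and mice of a group lay close together. It fell at day 25 (log2 fold change −0.89 ± 0.13 (SE), adjusted p = 0.00196) and at day 30 (−0.85 ± 0.13 (SE), adjusted p = 0.00128), and over both days its adjusted p was 2.26e-05. The RNA, of unknown function, spans chr5:52973012-52992292, minus strand, 57061 bases from Slc34a2, which was near 0 in liver (0.039 FPKM). These calls held under every alternative and with each mouse left out.

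Gm14403 is the member that rose most over both days. Gm14403 measured 3.21, 3.57 and 3.71 FPKM in the Con mice and 6.81, 6.89 and 6.75 FPKM in the CR mice at day 25. At day 30 it measured 3.20, 6.60 and 4.16 FPKM in Con and 9.52, 9.17 and 8.77 FPKM in CR mice. The CR mice lay above the Con mice at each day, and 1 Con mouse of day 30 came close to the CR level of day 25. It rose at day 25 (0.80 ± 0.16 (SE), adjusted p = 0.0104) and at day 30 (0.89 ± 0.16 (SE), adjusted p = 0.00351) and held under every alternative. It lies at chr2:177498226-177512311, plus strand, in a cluster of zinc finger genes on chromosome 2. The nearest coding gene, Zfp970, rose as well (0.76, adjusted p = 0.0313 and 0.91, adjusted p = 0.00880). Genes of such clusters resemble each other in sequence, so reads of the 2 genes may not be separable and the pair cannot be told apart with certainty.

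4833411C07Rik, whose nearest coding gene is the insulin receptor substrate Irs2, measured 16.99, 13.3 and 17.5 FPKM in Con and 7.91, 10.6 and 9.37 FPKM in CR mice at day 25. The CR mice were all lower, and it fell at that day (−0.72 ± 0.21 (SE), adjusted p = 0.0537). At day 30 the groups overlapped (9.45, 14.5 and 6.73 FPKM in Con and 7.12, 8.19 and 5.97 in CR mice) and it did not pass (−0.42 ± 0.21 (SE), adjusted p = 0.191). Its day 25 call was lost without Con mouse 1 or 3 or CR mouse 1 or 3 of that day and without the filter (adjusted p up to 0.159). 1600020E01Rik, beside the RNA-binding protein gene Pcbp1, measured 7.60, 5.35 and 6.22 FPKM in Con and 12.5, 9.07 and 9.34 FPKM in CR mice at day 30. It rose at that day, with no overlap (0.61 ± 0.18 (SE), adjusted p = 0.0364), and was lost without Con11 or CR mouse 1 (up to 0.148). Gm8883 measured 11.2, 9.51 and 9.997 FPKM in Con and 6.41, 8.10 and 6.24 FPKM in CR mice at day 30. All CR mice were lower, and it fell (−0.51 ± 0.16 (SE), adjusted p = 0.0476), but not without Con10, CR mouse 1 or CR mouse 3 (up to 0.148).

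Of 8 tested RNAs from a list of liver and metabolic lncRNAs, 2 rose and 2 fell at day 25, and 1 rose and 2 fell at day 30 (medians 0.10 and −0.15). Among all genes, 5.6% rose and 9.34% fell at day 25, and 8.33% rose and 16.4% fell at day 30. C730036E19Rik, named lncLSTR in RefSeq, is a liver RNA known for its part in triglyceride clearance. C730036E19Rik measured 20.1, 12.9 and 13.2 FPKM in the Con mice and 34.6, 38.3 and 19.5 FPKM in the CR mice at day 25. Its levels at day 30 were 21.03, 25.1 and 17.8 FPKM in Con and 21.8, 21.5 and 21.3 FPKM in CR mice. At day 25, 2 CR mice stood well above the Con mice while the other CR mouse lay just under the highest Con mouse, and at day 30 the groups overlapped within a narrow range. It rose at day 25 (0.93 ± 0.23 (SE), adjusted p = 0.0246) and was 0.03 ± 0.23 (SE), adjusted p = 0.950 at day 30. The day 25 call held under every alternative. The difference between the days, tested as such, was −0.90 with an unadjusted p of 0.0147 and an adjusted p of 1.00, which does not pass.

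Hnf4aos runs antisense to Hnf4a, the nuclear receptor that keeps hepatocytes differentiated. Hnf4aos measured 11.1, 11.1 and 9.97 FPKM in the Con mice and 6.41, 9.08 and 5.22 FPKM in the CR mice at day 25. The Con mice of day 30 had 11.3, 7.54 and 10.3 FPKM and the CR mice 6.44, 6.74 and 4.95 FPKM. The CR mice lay below the Con mice at both days. It fell at day 25 (−0.60 ± 0.18 (SE), adjusted p = 0.0543) and at day 30 (−0.60 ± 0.18 (SE), adjusted p = 0.0383). Hnf4a itself was 0.24, adjusted p = 0.256 at day 25 and 0.08, adjusted p = 0.704 at day 30, while R3hdml, which the RNA also overlaps on the opposite strand, fell at both (−0.80, adjusted p = 0.0326 and −0.98, adjusted p = 0.00825). None of the exon bases of Hnf4aos lie in coding exons. The calls at single days were lost without any of 4 mice at day 25 and any of 3 at day 30, and at day 25 without the filter (adjusted p up to 0.194 and 0.128), and the call over both days held (adjusted p = 0.00268).

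Gm15441 lies antisense to Txnip, the thioredoxin-binding protein that restrains glucose uptake. It measured 12.4, 9.92 and 3.08 FPKM in Con and 10.6, 9.06 and 9.88 FPKM in CR mice at day 30. One Con mouse was far lower than the others, the groups overlapped, and neither Gm15441 (0.36 ± 0.32 (SE), adjusted p = 0.462) nor Txnip (0.63, adjusted p = 0.223) passed. 0610005C13Rik, antisense to Bcat2, measured 138, 161 and 169 FPKM in Con and 119.7, 151 and 111 in CR mice at day 25 and overlapped at both days. Bcat2, which starts the breakdown of branched-chain amino acids, fell at both days (−0.55, adjusted p = 0.0492 and −0.62, adjusted p = 0.0202). Among the genes of the list that are not members, 2 passed. Gm10319, typed as a pseudogene (15.4 FPKM), fell at both days (−0.67, adjusted p = 0.0203 and −0.62, adjusted p = 0.0198). 1810053B23Rik, at 3.40 FPKM below the threshold, rose at both (1.05, adjusted p = 0.0715 and 2.01, adjusted p = 0.00230).

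By their position in the GENCODE annotation, 11 members carry a snoRNA gene inside. SnoRNAs are released from such hosts and guide the methylation and pseudouridylation of ribosomal RNA, and the spliced host itself is often short-lived. At day 25, 3 of the 11 rose (Snhg1, Snhg3 and Snhg6), where 5.6% of all genes did, and the other 8 did not pass, though Epb41l4aos did with the block. At day 30, Snhg6 rose and Gas5 fell, where 8.33% of all genes rose and 16.4% fell. Over both days 4 rose, Epb41l4aos in addition, and Gas5 fell, where 14.5% of all genes rose and 26.1% fell. The median log2 fold change of the 11 was 0.27 at day 25 and 0.20 at day 30, against −0.04 and −0.07 over all genes, and their summed level was 167, 209 and 169 FPKM in Con and 204, 228 and 249 FPKM in CR mice at day 25. At day 30 it was 169, 156 and 138 FPKM in Con and 190.2, 192 and 148 FPKM in CR mice, and the groups overlapped at both days. Each CR mouse of day 25 had a higher sum than the Con mouse of the same number.

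Snhg6 measured 20.4, 25.2 and 16.9 FPKM in the Con mice and 30.2, 30.9 and 38.6 FPKM in the CR mice at day 25. At day 30 it measured 21.6, 18.6 and 17.6 FPKM in Con and 32.2, 34.2 and 24.02 FPKM in CR mice. All CR mice were above all Con mice at both days. Snhg6, host of Snord87, rose at day 25 (0.66 ± 0.16 (SE), adjusted p = 0.0282) and at day 30 (0.61 ± 0.16 (SE), adjusted p = 0.0259). Its day 25 call was lost without Con mouse 3 or CR mouse 3 (adjusted p up to 0.108). Snhg3, host of Snora73a and Snora73b, measured 14.9, 11.03 and 13.1 FPKM in Con and 18.3, 23.6 and 27.8 FPKM in CR mice at day 25. It rose there without overlap (0.78 ± 0.18 (SE), adjusted p = 0.0174). At day 30, with 11.2, 13.9 and 11.4 FPKM in Con and 12.1, 18.4 and 17.1 FPKM in CR mice, the groups overlapped (0.33 ± 0.18 (SE), adjusted p = 0.215).

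Snhg1, which holds 8 annotated snoRNA genes, measured 6.88, 8.17 and 8.15 FPKM in Con and 9.52, 12.5 and 11.4 FPKM in CR mice at day 25. The CR mice were all higher and it rose (0.47 ± 0.12 (SE), adjusted p = 0.0263), while at day 30 the groups overlapped (0.19 ± 0.12 (SE), adjusted p = 0.281). Gas5, named for its build-up in cells that stop growing, went the other way. Gas5 measured 29.95, 28.5 and 28.01 FPKM in the Con mice and 24.5, 25.4 and 27.2 FPKM in the CR mice at day 25. Its levels at day 30 were 25.9, 26.1 and 25.99 FPKM in Con and 22.1, 22.5 and 17.8 FPKM in CR mice. All CR mice lay below all Con mice at both days, by a small margin at day 25. It passed at day 30 (−0.32 ± 0.10 (SE), adjusted p = 0.0460) but not at day 25 (−0.16 ± 0.10 (SE), adjusted p = 0.341), and the day 30 call was lost without any of the 3 Con mice or CR mouse 3 of that day, with the 2 groups of that day alone, and under median-ratio scaling (adjusted p up to 0.143). Snhg8, Snhg12, Snhg20, Zfas1, 1110038B12Rik and 2410006H16Rik did not pass at either day, with log2 fold changes from 0.11 to 0.35 at day 25 and from −0.03 to 0.46 at day 30.

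**Figure D3:**
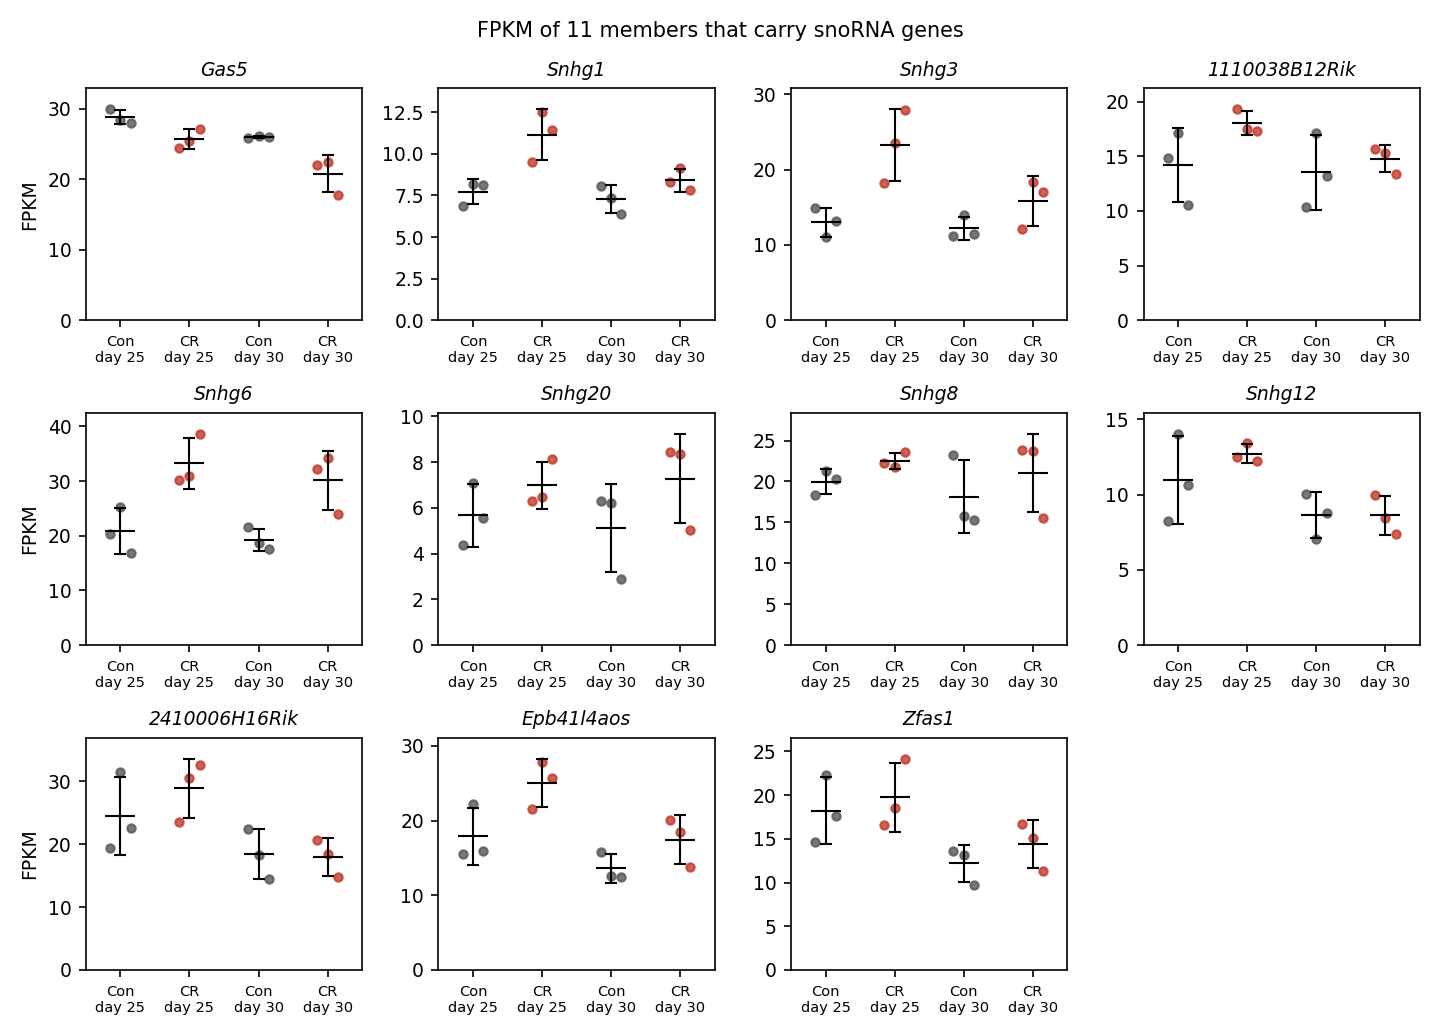
FPKM (y axis) of the 11 members with a snoRNA gene inside, in each mouse of the 4 groups (x axis), with points for mice and bars for the mean ± SD of 3 mice. Snhg6 is higher in CR at both days, Snhg1 and Snhg3 are higher at day 25, and Gas5 is lower in CR mice at both, passing at day 30 only. The CR mice of Snhg8 and 1110038B12Rik also lie above the Con mice at day 25, without passing.

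Snhg6 and Gas5 moved in opposite directions, and a snoRNA that each carries is shown. The sequence of Snord87 lies at chr1:9942463-9942549 (minus strand) within Snhg6 and that of Snord47 at chr1:161038082-161038158 (plus strand) within Gas5, read from mm10 by their GENCODE positions. Capitals mark box C (TGATGA) and box D (CTGA), the short motifs that snoRNP proteins bind.
Snord87: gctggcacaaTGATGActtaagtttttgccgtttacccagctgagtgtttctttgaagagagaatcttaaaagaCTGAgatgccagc
Snord47: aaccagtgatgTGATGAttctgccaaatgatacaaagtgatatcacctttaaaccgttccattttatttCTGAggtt

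Many snoRNA hosts are known as 5′ terminal oligopyrimidine genes, whose RNAs begin with a run of C and T and whose translation follows nutrient supply. RefSeq start regions (GRCm38.p6) matched 70 of the 86 members, 64 with a start within 1 base of the table's. The first 5 transcribed bases were only C or T in 9 of these 64, in 3 of the 9 matched hosts and in 6 of the other 55, where 4.44% of all 32851 RefSeq start regions had this, searched on the transcribed strand. The hosts matched include neither Snhg6 nor Epb41l4aos. The starts of 5 hosts are shown: Gas5, Snhg1 and Snhg3, which passed at a day, and Snhg8 and Snhg12, which passed at neither. Each is given with 20 bases before and 30 bases from the start, at chr1:161035146-161035195 (plus strand), chr19:8723467-8723516 (plus strand), chr4:132353657-132353706 (minus strand), chr3:123508307-123508356 (minus strand) and chr4:132308658-132308707 (plus strand) in turn. Capitals mark the unbroken run of C and T from the first transcribed base.
Gas5: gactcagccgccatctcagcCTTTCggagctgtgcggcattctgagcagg
Snhg1: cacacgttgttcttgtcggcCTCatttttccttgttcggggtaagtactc
Snhg3: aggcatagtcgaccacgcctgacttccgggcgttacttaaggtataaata
Snhg8: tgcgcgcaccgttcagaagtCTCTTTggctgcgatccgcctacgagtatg
Snhg12: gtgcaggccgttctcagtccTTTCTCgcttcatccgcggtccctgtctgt
Gas5, Snhg8 and Snhg12 begin with 5 or more such bases, Snhg1 with 3 and Snhg3 with none. Of the 4 matched hosts not shown, which did not pass at either day, 2410006H16Rik begins with 4 such bases and 1110038B12Rik, Snhg20 and Zfas1 with none.

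The wider list of snoRNA hosts, members or not, had 18 tested genes. Of these, 3 rose at day 25, 1 rose and 2 fell at day 30, and 5 rose and 3 fell over both days (medians 0.02 and −0.01). Of all genes, 5.6% rose and 9.34% fell at day 25, and 8.33% rose and 16.4% fell at day 30. Over both days 14.5% rose and 26.1% fell. Snhg11, at 4.57 FPKM below the threshold for members, was the host beside Gas5 that fell at day 30 (−0.57, adjusted p = 0.0622). Of 11 tested genes for snoRNP proteins, 1 rose and 1 fell at day 25 and 2 fell at day 30 (medians 0.02 and 0.06). Ncl, the nucleolin of ribosomal RNA processing, rose at day 25 (0.30, adjusted p = 0.0655), Naf1, an assembly factor, fell at both days (−0.30, adjusted p = 0.0640 and −0.29, adjusted p = 0.0557), and Dkc1, the pseudouridine synthase, fell at day 30 (−0.38, adjusted p = 0.0271). Fbl, the methyltransferase, was 0.18, adjusted p = 0.323 at day 25 and −0.19, adjusted p = 0.257 at day 30.

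Apart from Gas5, whose Mir5117 was counted with its snoRNA genes, a microRNA gene lies inside 4 members: Mir22hg, E130102H24Rik, Snhg20 and Gm38431. E130102H24Rik carries Mir101a toward its 3′ end. E130102H24Rik measured 3.57, 3.72 and 7.71 FPKM in the Con mice and 6.96, 6.81 and 8.60 FPKM in the CR mice at day 25. The Con mice of day 30 had 3.99, 3.96 and 3.87 FPKM and the CR mice 7.18, 6.41 and 6.26 FPKM. At day 25, 1 Con mouse lay among the CR mice and the other 2 far lower, and at day 30 all CR mice were above all Con mice. It rose at day 25 (0.56 ± 0.19 (SE), adjusted p = 0.0972) and at day 30 (0.62 ± 0.19 (SE), adjusted p = 0.0470). The day 25 call was lost in 16 of 23 refits and the day 30 call in 4 (adjusted p up to 0.292 and 0.147), but the call over both days held in all (0.59 ± 0.13 (SE), adjusted p = 0.00532). The nearest coding gene, Ak4, a mitochondrial adenylate kinase 63455 bases away, rose at both days (0.94, adjusted p = 0.000719 and 1.21, adjusted p = 6.76e-05).

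Mir22hg, the host of miR-22, measured 24.4, 30.03 and 25.1 FPKM in Con and 22.99, 24.5 and 23.2 FPKM in CR mice at day 25. At day 30 it measured 30.1, 23.3 and 22.2 FPKM in Con and 23.9, 28.1 and 20.2 FPKM in CR mice. The groups overlapped at both days (−0.16 ± 0.14 (SE), adjusted p = 0.521 and −0.06 ± 0.14 (SE), adjusted p = 0.795). The mature microRNAs of these 2 hosts, from RefSeq (GRCm38.p6), are shown with the seed (bases 2 to 8) in capitals, since the seed sets the targets, and the 4 seeds all differ. Levels of the mature microRNAs were not measured.
mmu-miR-22-5p: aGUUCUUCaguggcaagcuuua
mmu-miR-22-3p: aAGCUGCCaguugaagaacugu
mmu-miR-101a-5p: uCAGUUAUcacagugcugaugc
mmu-miR-101a-3p: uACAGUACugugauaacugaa
In the list of microRNA hosts, 5 genes were tested (medians 0.15 and −0.04), and the one that passed, C730036E19Rik at day 25, has no microRNA gene inside by GENCODE. In the microRNA machinery, 1 of 9 tested genes passed, Dicer1, which fell at day 30 (−0.32, adjusted p = 0.0670; medians 0.02 and −0.07). Among all genes, 14.9% passed at day 25 and 24.7% at day 30.

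By the spans of coding genes in the table, 43 members overlapped none, 7 of which started head to head with one within 1000 bases, 36 overlapped one on the opposite strand, and 7 overlapped coding genes on the same strand. Whether reads were counted by strand is not stated, so an antisense RNA and the coding gene across from it, where their exons coincide, cannot be told apart. For the 49 members whose GENCODE model has the table's length within 5%, 23 had no exon base in coding exons, 9 had up to 25% there and 17 had more. The 36 with neither overlap nor a head-to-head start had medians of 0.11 at day 25 and 0.01 at day 30, and those antisense −0.02 and −0.06. Across 40 pairs of a member and a coding gene that overlaps it on the opposite strand, 1 of them with the same-strand member Rnf8-cmtr1, the log2 fold changes correlated with a Pearson r of 0.68 at day 25 and 0.69 at day 30, and 33 of 40 had the same sign at each day. Over 13 same-strand pairs r was 0.58 and 0.53, and over 14 head-to-head pairs, whose spans in the table do not overlap and which include members that overlap another coding gene, −0.30 and 0.08. For 25 pairs of a member with neither overlap nor head-to-head start and its nearest coding gene, r was 0.38 and 0.31. The 2 genes of a pair are measured in the same libraries and may share reads, so these are descriptions.

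**Figure D4:**
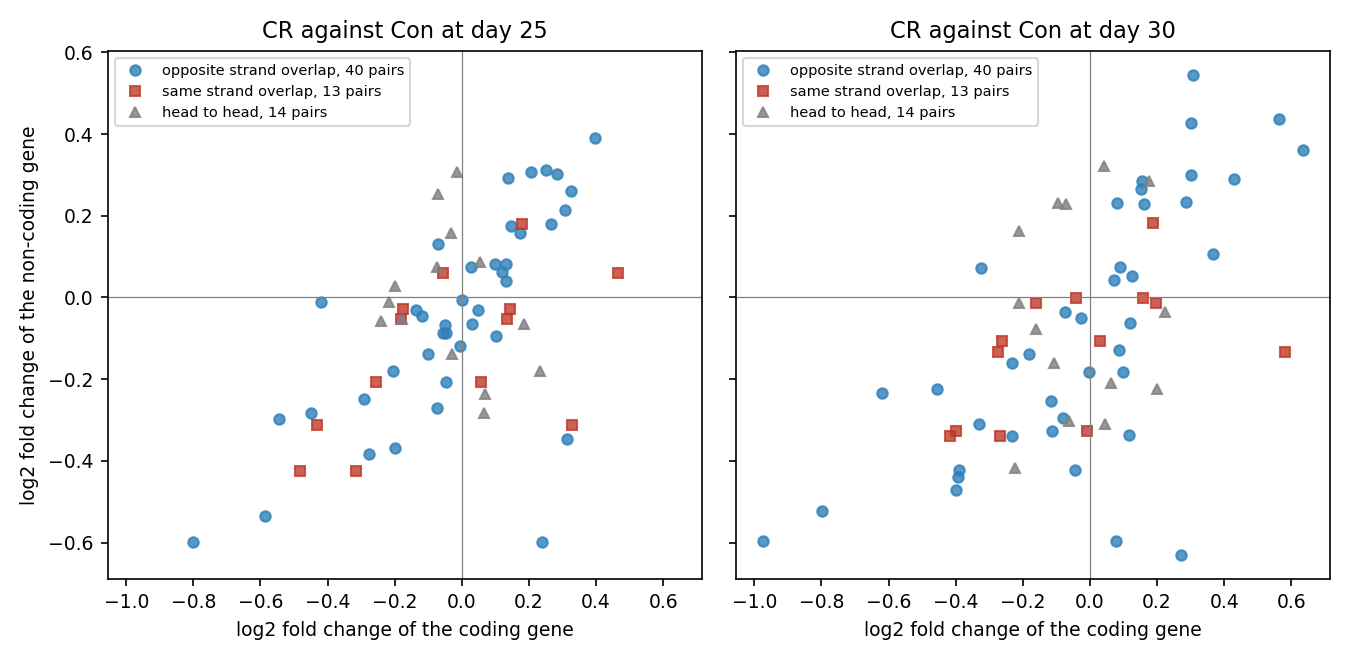
Each point is a member and a coding gene beside it, placed by the log2 fold change of CR against Con of the coding gene (x axis) and of the member (y axis), both on log2(FPKM + 1), at day 25 and day 30. The 40 opposite-strand pairs lie along a rising line (r of 0.68 and 0.69), the 14 head-to-head pairs do not (−0.30 and 0.08).

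1810019D21Rik lies antisense to Esrp2, which directs splicing in epithelial cells and hepatocytes. 1810019D21Rik measured 19.7, 16.1 and 20.9 FPKM in the Con mice and 13.3, 11.2 and 13.7 FPKM in the CR mice at day 25. At day 30 it measured 17.9, 20.03 and 14.05 FPKM in Con and 14.4, 12.2 and 8.86 FPKM in CR mice. CR mice were all lower at day 25, and at day 30 1 CR mouse lay within the Con range. It fell at day 25 (−0.53 ± 0.17 (SE), adjusted p = 0.0712) and at day 30 (−0.52 ± 0.17 (SE), adjusted p = 0.0542), and Esrp2 fell as well (−0.59, adjusted p = 0.00602 and −0.80, adjusted p = 0.000595). Both single-day calls of 1810019D21Rik were lost under median-ratio and quantile scaling and without several single mice (adjusted p up to 0.196 and 0.176). Its call over both days held in all refits (adjusted p up to 0.0117).

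Gm12992, antisense to the splicing factor gene Srsf4, measured 6.86, 7.47 and 7.91 FPKM in Con and 11.4, 9.83 and 8.96 FPKM in CR mice at day 25. CR mice were above Con mice at both days, and it rose at day 25 (0.39 ± 0.11 (SE), adjusted p = 0.0429) and at day 30 (0.30 ± 0.11 (SE), adjusted p = 0.0811), as did Srsf4 (0.40, adjusted p = 0.0390 and 0.30, adjusted p = 0.0771). With 34.1% of its exon bases in coding exons of the other strand, the 2 cannot be told apart. The calls of Gm12992 were lost without Con mouse 1 or CR mouse 1 at day 25, and in 8 of 23 refits at day 30 (adjusted p up to 0.148 and 0.248).

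BC029722, antisense to the metalloproteinase gene Mmp24, measured 8.26, 9.33 and 9.40 FPKM in Con and 6.97, 7.18 and 6.09 FPKM in CR mice at day 25. It measured 9.39, 7.57 and 8.18 FPKM in Con and 6.27, 6.89 and 6.05 FPKM in CR mice at day 30. CR mice were below Con mice at both days, and it fell at both (−0.37 ± 0.10 (SE), adjusted p = 0.0370 and −0.34 ± 0.10 (SE), adjusted p = 0.0356). Without Con mouse 3 or CR mouse 3 at day 25, and without Con10 or CR mouse 1 at day 30, the single-day calls were lost (adjusted p up to 0.137 and 0.129). Mmp24 was −0.20, adjusted p = 0.219 and −0.23, adjusted p = 0.116.

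Abhd11os, antisense to the mitochondrial hydrolase gene Abhd11, measured 8.96, 7.09 and 8.85 FPKM in Con and 14.1, 13.3 and 10.4 FPKM in CR mice at day 30. It rose there without overlap (0.55 ± 0.14 (SE), adjusted p = 0.0209) under every alternative, and was 0.18 ± 0.14 (SE), adjusted p = 0.464 at day 25. Wbscr25, near it on chromosome 5 and antisense to the tight junction gene Cldn3, measured 9.08, 7.29 and 6.36 FPKM in Con and 5.92, 4.89 and 4.68 FPKM in CR mice at day 30. The CR mice were all lower, and both Wbscr25 (−0.47 ± 0.13 (SE), adjusted p = 0.0325) and Cldn3 (−0.40, adjusted p = 0.0329) fell at day 30. The Wbscr25 call was lost without Con10 (adjusted p = 0.120). D330041H03Rik, antisense to the lipid transporter gene Abca3, had CR mice above Con mice at both days and passed in the model without a block with the days together (0.30 ± 0.08 (SE), adjusted p = 0.0137).

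0610031O16Rik, across from the alcohol dehydrogenase gene Adh7, measured 17.4, 24.1 and 18.2 FPKM in Con and 12.7, 14.8 and 10.02 FPKM in CR mice at day 30. CR mice were all lower and it fell (−0.63 ± 0.24 (SE), adjusted p = 0.0893), while Adh7 was 0.27, adjusted p = 0.301. None of its exon bases lie in coding exons, and its call was lost in 11 of 23 refits (adjusted p up to 0.256).

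The 7 same-strand members each overlap 2 coding genes, as read-through transcripts do, and their FPKM may hold reads of both genes. 6430706D22Rik measured 31.6, 32.6 and 35.1 FPKM in Con and 23.6, 25.6 and 23.98 FPKM in CR mice at day 25. It measured 42.1, 33.5 and 42.3 FPKM in Con and 31.1, 30.6 and 30.2 FPKM in CR mice at day 30. CR mice lay below Con mice at both days, and it fell at both (−0.43 ± 0.10 (SE), adjusted p = 0.0227 and −0.34 ± 0.10 (SE), adjusted p = 0.0396). The genes it overlaps, A730008H23Rik (−0.48, adjusted p = 0.0199 and −0.42, adjusted p = 0.0254) and Hjurp (−0.32, adjusted p = 0.0566 and −0.27, adjusted p = 0.0728), fell at both days too. No GENCODE exon model was matched to 6430706D22Rik, so whether it is a read-through of them was not tested. The day 30 call of 6430706D22Rik was lost under median-ratio scaling and without Con10 or Con12 (adjusted p up to 0.134).

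Rnf8-cmtr1, which spans the ubiquitin ligase gene Rnf8 and the cap methyltransferase gene Cmtr1, fell at day 30 (−0.33 ± 0.11 (SE), adjusted p = 0.0510). All CR mice lay below all Con mice, Cmtr1 fell (−0.40, adjusted p = 0.0329) and Rnf8 did not pass (−0.01, adjusted p = 0.967). The call was lost with quantile normalization and without Con10, Con11 or CR mouse 3 (adjusted p up to 0.152). Gm44502, named after its values were seen, spans Chkb and Cpt1b and fell at day 25 (−0.31 ± 0.11 (SE), adjusted p = 0.0947), as did Chkb (−0.43, adjusted p = 0.0575), while Cpt1b was 0.33, adjusted p = 0.288 there and rose at day 30 (0.58, adjusted p = 0.0469).

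Between the days, none of the 86 members passed for a difference of the CR effect in limma (all genes 0.00944%) and 0 with voom, and 1 had an unadjusted p under 0.05, C730036E19Rik (all genes 3.46%). Con mice of day 30 against day 25 gave 0 calls (all genes 0%) in limma and 0 with voom, and 9 members at an unadjusted p under 0.05 (7.22%). For CR mice it was 0 calls (0.321%) in limma and 0 with voom, and 15 members at an unadjusted p under 0.05 (8.66%), 11 of them lower at day 30 (4.73%). Those 11 include 7 of the snoRNA hosts: Snhg1, Snhg3, Snhg12, Zfas1, Epb41l4aos, 2410006H16Rik and Gas5, named after their values were seen. In Con mice these 7 were lower at day 30 too (log2 fold changes from −0.54 to −0.08), and Zfas1 (−0.54) is among the 9 members there.

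Markers of other liver cells are set beside all genes tested, of which 5.6% rose and 9.34% fell at day 25. At day 30, 8.33% of all genes rose and 16.4% fell. With few genes per list, these counts are descriptions. Of 7 macrophage and Kupffer cell markers, 4 fell at day 25 (Clec4f, Csf1r, Cd5l and Vsig4) and Marco rose at day 30. Their sum was 41.8, 68.1 and 39.9 FPKM in Con and 25.6, 34.1 and 28.6 FPKM in CR mice at day 25, and 53.1, 46.3 and 36.1 and 38.7, 47.8 and 35.1 FPKM at day 30, with Cd5l the most abundant. At day 25 all CR mice were lower, and at day 30 the groups overlapped. Of 6 sinusoidal endothelial markers, 1 rose at day 25 and 3 at day 30, with sums of 37.3, 51.7 and 34.6 FPKM in Con and 43.9, 46.8 and 53.97 FPKM in CR mice at day 25. At day 30 the sums were 36.6, 33.5 and 32.7 and 50.1, 44.3 and 48.4 FPKM, all CR mice higher, with Clec4g the most abundant.

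Of 5 tested stellate and fibroblast markers, 1 rose at day 25 and 2 at day 30, where 5.6% and 8.33% of all genes did. Their sums were 62.4, 57.5 and 52.2 FPKM in Con and 66.7, 68.3 and 65.3 FPKM in CR mice at day 25. At day 30 they were 60.01, 56.2 and 50.1 and 69.6, 83.1 and 72.6 FPKM, Dcn the most abundant and CR mice higher at both days. Of 3 tested erythroid markers, Alas2 fell at both days (−0.69, adjusted p = 0.0667 and −1.49, adjusted p = 0.000974), where 9.34% and 16.4% of all genes fell. Hba-a1 (0.75, adjusted p = 0.397) and Hbb-bt (0.77, adjusted p = 0.315) pointed the other way at day 30 without passing. The list had medians of −0.05 and 0.75, with sums of 87.98, 171 and 294 FPKM in Con and 131, 145 and 157 FPKM in CR mice at day 25. At day 30 these were 79.8, 115 and 147 and 240.4, 89.9 and 91.97 FPKM, overlapping at both days, with Hba-a1 the most abundant and Slc4a1 near 0. Of 5 cholangiocyte markers, 2 could be tested and neither passed. Lymphocyte markers were all under the filter, and the pancreas markers Pnlip, Cpa1 and Prss2 and the adipocyte markers Adipoq and Plin1 averaged under 0.1 FPKM. The fourth pancreas marker, Cela1 (7.42 FPKM), and the third adipocyte marker, Cidec (1.68 FPKM), were expressed and did not pass at either day. The part of other cells in the members' differences was not tested.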

How the data were processed

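Liver RNA of 12 male mice was sequenced as paired reads on a single lane. Per the labels, the authors used CASAVA 1.8.2, FastQC, BWA and mm10, and name DESeq2 for testing. The deposited values are FPKM, made with HOMER per the file headers from reads on exons, 1 transcript per gene, without scaling between libraries. FPKM are not counts, so limma was used and not DESeq2.

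The test was limma 3.58.1 (R 4.3.3) on log2(FPKM + 1). It covered the 10593 genes that reached 1 FPKM in 3 or more libraries. A model of the 4 groups (empirical Bayes with trend) gave the CR effect at each day and its difference, and CR against Con over both days used day as a covariate. Calls are Benjamini-Hochberg adjusted p under 0.1 over all genes tested, 2-sided. With 3 mice a group, an exact permutation test of 1 gene cannot go below 0.1, so the tests rest on a spread shared over genes. Depth was recovered from up to 1500 low values per library. Adjusted p given as "up to" are the highest over the alternatives. The model was tested on simulated data. Tables used numpy 2.4.6 and pandas 2.3.3, and figures matplotlib 3.10.9, under Python 3.11.15. Positions come from the table, GENCODE M21 and RefSeq GRCm38.p6.

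Named members are the 10 most abundant, the 20 with the smallest p over both days among those called, the 5 largest rises and falls per day without overlap, those in the gene lists, those at the threshold, and the coding genes beside them. For any other, the text says that it was named after its values were seen, and the members described by snoRNA or microRNA genes inside were picked by annotation. The members and lists were chosen with earlier results of these data known. The counts of members with few shared exons were added after seeing the data.

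Same-numbered mice are different animals, and whether they deviate together was checked within each day. They did so more at day 25 (mean correlation 0.260) than at day 30 (0.114, numbers of the columns), so the blocked count is given in the Results for day 25. At day 30 the labels do not tell the Con mice apart, so they are named by column. Alternatives covered pseudocount, filter, scaling (median ratio, TPM, quantile), voom on recovered reads, trend, groups in the model, replicate block, thresholds, the choice of members and leaving out each mouse. One gene of the lists is not reported here, and so its list is left out.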

Additional observations from a re-analysis of the deposited data

Results flagged for a closer look

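The 24 short snoRNA and microRNA entries left out of the members were not part of the comparisons, and 4 of them passed the test at a day, 1 at day 25 and 3 at day 30 (all genes 14.9% and 24.7%), without overlap of CR and Con mice. Mir546 measured 11.77, 13.15 and 7.91 FPKM in Con and 21.23, 13.23 and 19.48 FPKM in CR mice at day 25, with a log2 fold change of 0.67 ± 0.20 (SE) and an adjusted p of 0.0523. Mir3064 measured 22.9, 23.4 and 22.2 FPKM in Con and 47.4, 32.7 and 35.7 FPKM in CR mice at day 30 (0.71 ± 0.24, adjusted p = 0.0657). Mir5121 measured 30.1, 28.3 and 23.1 FPKM in Con and 42.9, 44.4 and 35.2 FPKM in CR mice at day 30 (0.57 ± 0.15, adjusted p = 0.0243). Mir3082 fell, from 13.9, 14.9 and 21.8 FPKM in Con to 9.53, 11.4 and 12.2 FPKM in CR mice at day 30 (−0.55 ± 0.20, adjusted p = 0.0837). They rest on a mean of 34.7, 39.7, 49.6 and 16.9 reads per library. Whether such reads come from the microRNA precursor or from a longer transcript around it was not tested.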

How the results depend on the processing

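Of 58 calls of named members, 33 held under every alternative and with each mouse left out, and none reversed. Calls over both days were lost in some refits for Gm10069, 0610005C13Rik, 1810058I24Rik, Gm20319, Gm8883 and C730036E19Rik. Those of the other named members held in all, among them 4833411C07Rik, Gm12992, BC029722 and 1600020E01Rik. Over 1307 refits, 1165 kept the call and 142 kept the direction but not the call. The counts moved by over 1.5 times mainly with the choice of members, where the number of genes counted changes by construction. With a mean FPKM of at least 2 (164 members), 28 were called at day 25, 37 at day 30 and 68 over both days. With at least 10 (46 members), it was 8, 10 and 22. Among the 43 members whose span overlaps no coding gene of the table, it was 9, 11 and 19, and among the 32 with at most 25% of exon bases in coding exons, a choice made after seeing the data, 5, 9 and 13. For each of these choices the shares of all genes stay at 14.9%, 24.7% and 40.6%. Requiring a log2 fold change of at least 1 left 1 at day 25, 1 at day 30 and 1 over both days (all genes 1.48%, 2.21% and 1.66%). An adjusted p under 0.05 left 14 at day 30 (all genes 16.4%). Without a filter on low values it was 10, 15 and 31 (all genes 7.55%, 13.2% and 25.4%). No member passed for the difference between days under any setting.

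Leaving out 1 mouse gave 9 to 15 calls at day 25, 10 to 24 at day 30, 32 to 38 over both days, and 0 to 0 for the difference between days, and medians of −0.03 to 0.03 at day 25 and −0.05 to 0.03 at day 30. The counts of 9 at day 25 came without Con mouse 1 and without CR mouse 1 (all genes 9.44% and 9.48%). At day 30 they were 10 without Con10 (all genes 17.8%), 11 without Con11 (17.7%) and 13 without CR mouse 1 (14.1%). The cause was not tested.

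With the replicate number as a block, 18 members were called at day 25, 30 at day 30 (numbers of the columns), 48 over both days and 0 for the difference. The shares of all genes were 16.5%, 30.8%, 46.3% and 0.0755%. Same-numbered Con and CR mice had a mean correlation of 0.260 at day 25 (0.106 to 0.368) and 0.114 at day 30 (0.0456 to 0.181, numbers of the columns). Mice of different numbers had means of −0.131 and −0.0575. Deviations from a group mean sum to 0 over its 3 mice, so these negative means are not separate evidence of pairing. Pairing was taken to hold at day 25 only, though the same-number values of day 30 were all positive too. Whether the days differ in this was not tested. The 3 mice per group, and 35 reads for the weakest member in a library, limit what can be seen. FPKM of members that share exons with coding genes may hold reads of those genes.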

Other observations

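Protein partners of other non-coding RNAs are set beside all genes tested, of which 5.6% rose and 9.34% fell at day 25. At day 30, 8.33% of all genes rose and 16.4% fell. With few genes per list, the counts are descriptions. Of 6 tested genes of the 7SK ribonucleoprotein, which holds the elongation factor P-TEFb inactive, 2 rose at day 25 and 1 at day 30 (medians −0.02 and 0.02). Hexim1, its inhibitor subunit, rose at both days (0.69, adjusted p = 0.0137 and 0.54, adjusted p = 0.0278), and Mepce, which caps 7SK RNA, rose at day 25 (0.31, adjusted p = 0.0915). Of 10 tested subunits of RNase P and MRP, which trim transfer and ribosomal RNA precursors, 1 fell at day 25, and 2 rose and 1 fell at day 30 (medians 0.06 and 0.02). Pop4 fell at both days (−0.49, adjusted p = 0.0164 and −0.44, adjusted p = 0.0186), and Pop5 (0.38, adjusted p = 0.0982) and Rpp21 (0.46, adjusted p = 0.0878) rose at day 30. Of 13 genes of nonsense-mediated decay, which clears many spliced snoRNA hosts, 1 passed, the kinase gene Smg1, which rose at day 25 (0.35, adjusted p = 0.0949; medians −0.02 and −0.04).

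Other non-coding RNA lists had few testable genes. Peg13, the 1 tested of 10 imprinted RNAs, rose at day 30 (0.32, adjusted p = 0.0503), and H19 averaged under 0.1 FPKM. Rpph1, the RNA of RNase P, rose at day 25 (0.57, adjusted p = 0.0834). Its mean of 0.816 FPKM is under the 1 FPKM of the filter, so this call lies near the floor. The other tested RNA of ribonucleoproteins, Rnu73b (1.55 FPKM), was lower at day 25 without passing (−1.05, adjusted p = 0.114). At day 30 neither passed, and the median of the 2 was 0.48, against −0.24 at day 25. Rn45s, the ribosomal RNA precursor, measured 757, 536 and 892 FPKM in Con and 389, 1152 and 621 FPKM in CR mice at day 25, overlapping (−0.13, adjusted p = 0.851). Among 3 tested RNAs of other kinds, 2900097C17Rik fell at day 30 (−0.29, adjusted p = 0.0432), and Sra1, typed as coding, was 0.11, adjusted p = 0.629.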
